A study of Bos taurus with 4 samples.

Results

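The transcripts of 6 families of developmental transcription factors were measured in the sperm RNA of Murrah buffalo bulls. A probe was a member when its gene symbol was that of a numbered HOXA to HOXD, SOX, FOXA to FOXS, PAX, TBX or GATA gene. This choice took 167 of the 51282 sample probes of the array, for 102 of its 32429 gene names, and used no measured value. The HOX genes held 47 probes for 29 genes, the SOX genes 25 for 15, the FOX genes 56 for 33, the PAX genes 12 for 8, the TBX genes 14 for 11 and the GATA genes 13 for 6. Between 1 and 4 probes stood for a gene, and 56 of the 102 genes had 1 probe.

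The samples were 2 pools from high-fertile and 2 pools from low-fertile breeding bulls, each an equal mix of RNA from 2 bulls, with fertility taken from field conception rates. No treatment was given, and in both groups the RNA came from spermatozoa selected on Percoll, a density gradient. The study names frozen and thawed semen for its sperm function assays. A pool shows no difference between its bulls, so p-values measure the spread between pools. The organism field of the labels reads Bos taurus, whereas the sample descriptions and the study's methods name buffalo, so that buffalo RNA was hybridized to probes designed for cattle.

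The families are named after the proteins' DNA-binding parts or founding genes. HOX proteins carry a homeodomain and give body segments their identity, and their genes lie in 4 clusters in an order that follows the body axis. SOX proteins bend DNA through an HMG box, FOX proteins open chromatin or switch genes through a forkhead domain, PAX proteins bind through a paired domain, TBX proteins through a T-box and GATA proteins through zinc fingers. In the testis, SOX30 acts in developing spermatids, FOXO1 in the stem cells of the germ line and GATA4 in the somatic cells around them. Mature spermatozoa transcribe little, and the RNA they carry is largely left over from earlier stages. In such bulk RNA, fewer cells of a type and less RNA per cell cannot be told apart.

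All 4 arrays shared a slide, with each fertility group in a row of its own, so that slide position and fertility cannot be told apart. The signal is the log2 processed intensity minus the 75th percentile of the array, so that 0 is a processed intensity of 36.7 and 37.1 in high-fertile pools 1 and 2 and of 37 and 32.7 in low-fertile pools 1 and 2. Over the probes that all arrays showed well above background, Pearson's r was 0.981 and 0.980 within the groups and between 0.924 and 0.935 across them. Over the 54 members among these probes it was 0.970 in the high-fertile pair and 0.811 in the low-fertile pair. The 54 include a PAX5 probe at 1.33 and 5.69 in low-fertile pools 1 and 2, and its part in the latter value was not tested. The array of low-fertile pool 2 stood apart, with 25.4% of all probes well above background against 45.4%, 45.3% and 50% on the others, and its negative-control spots had an SD of 126, against 27.8, 10.7 and 1.94. Of 18 sperm and spermatid markers, between 5 and 12 per array were well above background. ODF1 of the outer dense fibres (2.96, 3.06, 2.72 and 2.94 in high-fertile pools 1 and 2 and low-fertile pools 1 and 2), the acrosomal enzyme ACR, the protamine PRM1 and TNP1 were so on all 4 arrays. AKAP3, AKAP4, SMCP, SPEM1 and HSPA1L were well above background on no array.

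On each array a larger share of the member probes than of all probes was well above background. Well above background were 84 (50.3%) and 94 (56.3%) of the member probes in high-fertile pools 1 and 2, and 116 (69.5%) and 55 (32.9%) in low-fertile pools 1 and 2. By family, the share in low-fertile pool 1 ran from 57.4% of HOX probes to 85.7% of TBX probes, and in low-fertile pool 2 from 23.1% of GATA probes to 42.9% of TBX probes. In each of the 6 families the share was highest in low-fertile pool 1 and lowest in low-fertile pool 2, which is also the order over all probes. No test was made of these shares, since the probes of an array share its background.

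**Figure D1:**
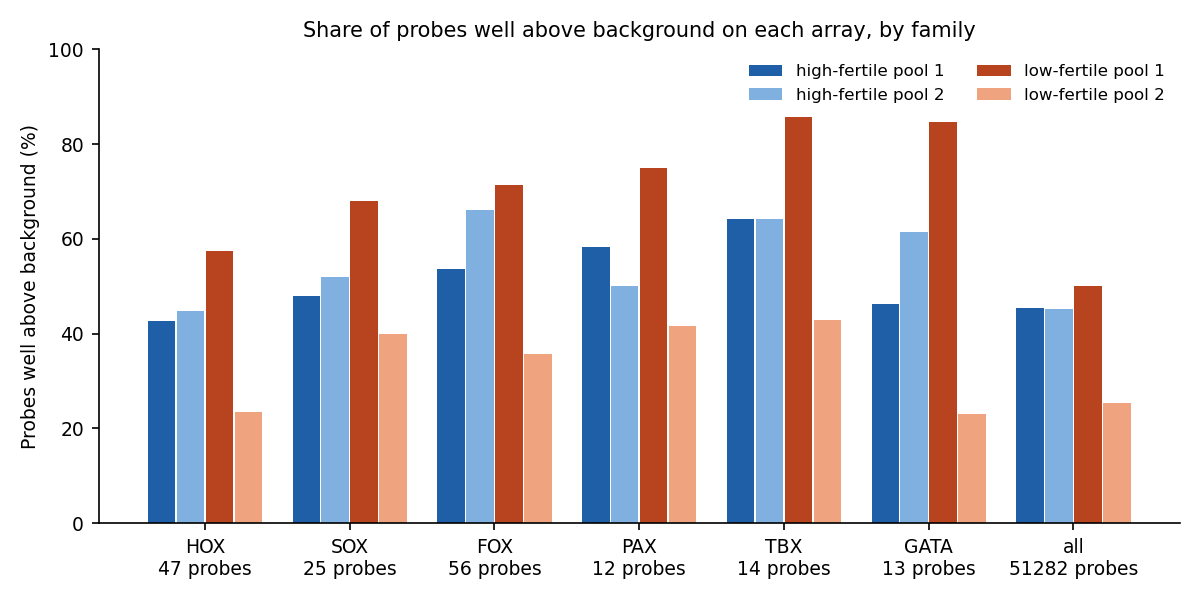
Percent of the probes of each family, and of all sample probes, that were well above background on each of the 4 arrays. Low-fertile pool 1 has the highest bar and low-fertile pool 2 the lowest in every family, and the HOX bars are the lowest of the 6 families in both high-fertile pools.

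A probe was tested when both pools of the high-fertile group, or both of the low-fertile group, showed it well above background. That held for 79 member probes (47.3%) of 63 genes, against 41.0% of all probes. The tested share was 36.2% for HOX (17 probes), 44.0% for SOX (11), 55.4% for FOX (31), 50% for PAX (6), 57.1% for TBX (8) and 46.2% for GATA (6). All 4 arrays showed 54 member probes (32.3%, against 24.5% of all probes), while 24 were admitted by the high-fertile pair only and 1 by the low-fertile pair only. A probe of the last kinds passed through the marks of 1 group, so its direction can in part be set by the filter. It need not be higher in that group. A GATA4 probe admitted by the high-fertile pair was well above background in low-fertile pool 1 but not in pool 2, and rose by 0.38. Of the 88 untested probes, 41 were well above background on no array, 26 in low-fertile pool 1 alone and 21 in other combinations, and 15 genes had no probe above background on any array.

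The HOX probes were detected unevenly along and between the clusters. From the HOXB cluster, on chromosome 19, 8 of 11 probes were tested, against 3 of 12 for HOXA on chromosome 4, 3 of 13 for HOXC on chromosome 5 and 3 of 11 for HOXD on chromosome 2. By position, 9 of 17 probes for paralogue numbers 1 to 4, which pattern the hindbrain and neck, were tested. The counts were 3 of 10 for numbers 5 to 8, in the trunk, and 5 of 20 for numbers 9 to 13, in the hind body and limbs. Of the numbers 9 to 13, a HOXD9 probe was well above background on all 4 arrays. The genes HOXA5, HOXA9, HOXA10, HOXA13, HOXB8, HOXD8 and HOXD12 had no probe above background on any array. No test was made of these differences, and probes of a gene can differ in how well they bind. The median GC content of the probes was 53.3% for HOXB, against 40.8% for HOXA, 43.3% for HOXC and 41.7% for HOXD. For numbers 1 to 4, 5 to 8 and 9 to 13 it was 45%, 45% and 41.7%. The part of base composition in these counts was not tested.

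**Figure D2:**
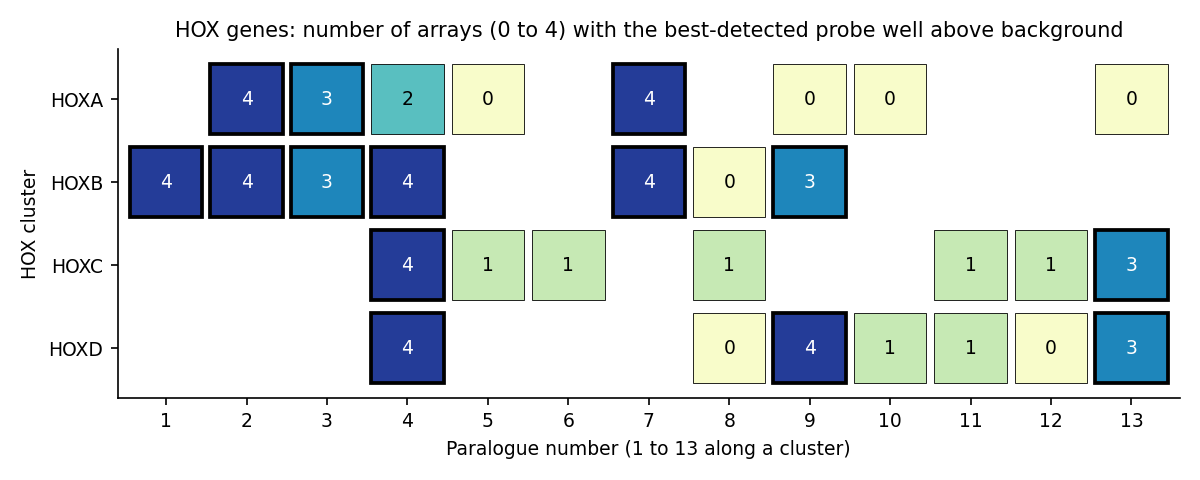
HOX genes on the array by cluster (rows) and paralogue number (columns), with the number of arrays, out of 4, on which the best-detected probe of the gene was well above background. Thick frames mark genes with a tested probe, and empty places are genes not named on the array; the HOXB row and the columns 1 to 4 hold most of the dark squares.

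The comparison asked whether transcripts of these factors differ between the sperm of low-fertile and high-fertile bulls. With limma and Benjamini-Hochberg adjustment over the 21033 probes tested on the whole array, 19 of the 79 member probes (24.1%) passed an adjusted p of 0.05, against 26.8% of all probes. Of these, 10 were lower in the low-fertile pools (17.6% of all probes were) and 9 were higher (9.22% of all probes were). The members were thus called about as often as the array as a whole. Without the filter and by the methods' t-test after adjustment 0 members passed, and of the whole array 0 probes passed in either. Without the filter 32 of 167 members had an unadjusted p under 0.05 (limma), as had 9278 of 51282 probes of the array. By the t-test 17 of 79 members and 6084 of 21024 probes had one. With low-fertile pool 2 out of fit and filter, 962 of 27215 probes of the array passed, among them 2 of the 19, SOX30 and the dimmer called FOXN3 probe. With the normexp background correction all 19 passed, but all except TBX1 had log2 fold changes smaller by over 1.5 times. Leaving out a pool moved 1 of the 19 by that much, HOXD9, while the fits had fewer pools. With 2 pools a group, the smallest two-sided p of an exact permutation test is 0.333, so each call rests on a spread that limma shares across probes, and the small number of arrays limits all precision.

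Detection moved with the direction of the calls. Over the 54 member probes above background on all 4 arrays, 3 were lower and 8 higher, where 9.89% and 13.2% of all such probes were. Over the 24 that qualified through the high-fertile pair alone, 7 were lower, against 30.1% of all such probes, and 0 were higher. These 7 were the probes of SOX30, PAX6, FOXR1, HOXC13, FOXK2 and FOXE1 and the dimmer called FOXN3 probe. Each had to be well above background in both high-fertile pools to be tested. Their direction, their p and the fits with a pool left out are therefore descriptions and no independent support. The pools of the groups did not overlap for 23 of the 79 probes with the low-fertile pools below (35.5% of all probes) and for 32 with the low-fertile pools above (33.6% of all probes), and 24 overlapped.

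By family, lower and higher probes numbered 2 and 2 for HOX, 1 and 3 for SOX, 5 and 3 for FOX, 1 and 1 for PAX, 1 and 0 for TBX and 0 and 0 for GATA. With 6 to 31 tested probes a family, nothing is read from these counts beside the 17.6% lower and 9.22% higher over the array. The median log2 fold change, low-fertile over high-fertile, was -0.10 for HOX, 0.05 for SOX, 0.06 for FOX, 0.39 for PAX, 0.03 for TBX and -0.08 for GATA, beside 0.00 over all probes tested. Scaled on the spike-in probes, by which the median over all tested probes was -0.43, all 6 family medians lay below 0, between -0.52 for HOX and -0.03 for PAX, and of the 9 higher probes FOXL1 and PAX7 still passed. Without low-fertile pool 2 the PAX median was 0.24, and the TBX median was -0.05 without that pool and -0.07 without high-fertile pool 1. Each of the 6 families held log2 fold changes of both signs.

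**Figure D3:**
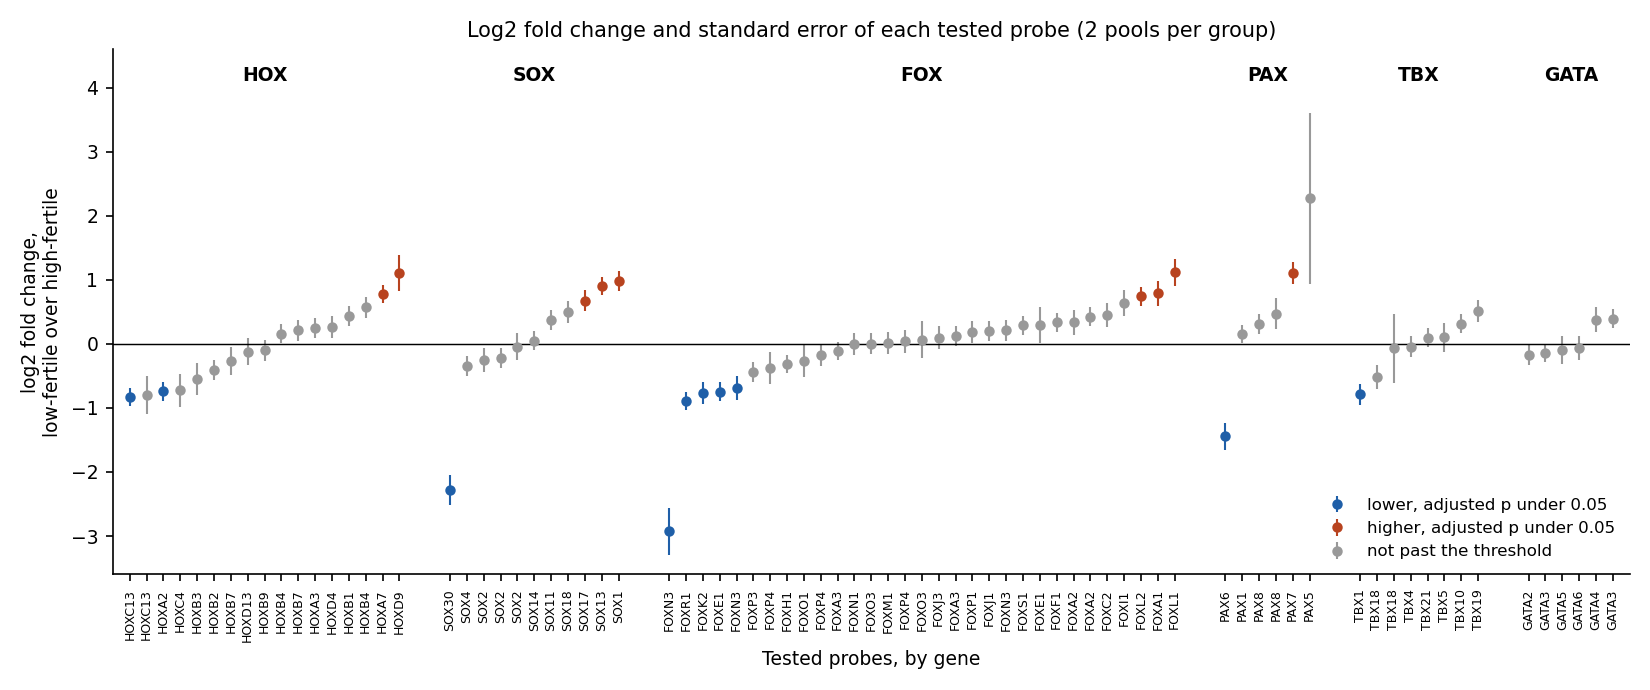
Log2 fold change, low-fertile over high-fertile, of the 79 tested member probes, ordered within each family, with bars for the standard error from limma (2 pools per group). Coloured points passed an adjusted p of 0.05; the lowest point, a FOXN3 probe, was above background on neither low-fertile array, so its fitted place is no measured fold, SOX30 lies at -2.28, and the highest point, PAX5 at 2.27, has a standard error of 1.34 and did not pass.

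The germ line gene SOX30 was lower in the low-fertile pools. SOX30 is an HMG-box factor of late meiotic and post-meiotic male germ cells. Its probe, on chr7:69017788-69017847 of Btau_3.1, minus strand, is shown because it is the only SOX30 probe on the array, so that the finding rests on this sequence.
SOX30: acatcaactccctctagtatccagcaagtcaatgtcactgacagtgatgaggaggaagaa
Its normalized log2 signal was 0.98 and 0.87 in high-fertile pools 1 and 2 and -1.05 and -1.66 in low-fertile pools 1 and 2. The groups did not overlap. The probe was well above background on 1 of the 2 low-fertile arrays, that of pool 1, and so was admitted through the high-fertile pair, where it was high. Its p is thus a description and no independent support. In log2 units SOX30 fell by 2.28 (limma, standard error 0.233, adjusted p = 0.0034), and by 0.77 with the normexp background correction (adjusted p = 0.000481, limma), so the size of the decrease is not settled. With each pool left out in turn, under the same filter, its log2 fold change lay between -2.59 and -1.98. Such a fit leaves 1 pool in a group, which is assumed to vary like the pools of the other. With low-fertile pool 2 out of both fit and filter its adjusted p was 0.0434 (limma).

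Of 11 listed germ line and sperm genes on the array, 7 were tested, with 2 lower, 1 higher and 4 not past the threshold, where 17.6% of all tested probes were lower and 9.22% higher. FOXR1, a forkhead gene placed in this list, had a signal of 0.25 and 0.27 in the high-fertile pools and of -0.60 and -0.65 in the low-fertile pools. It fell by 0.89 (standard error 0.140, adjusted p = 0.00962, limma), with low-fertile pool 2 not well above background, and was admitted through the high-fertile pair. Without high-fertile pool 1 or 2 FOXR1 no longer passed (adjusted p = 0.0508 and 0.0559, limma), with its value hardly moved, at -0.90 and -0.87. SOX17, an endoderm factor that also marks early germ cells, had -0.01 and -0.12 in the high-fertile and 0.72 and 0.50 in the low-fertile pools. It rose by 0.68 (standard error 0.158, adjusted p = 0.0304, limma) and did not pass without high-fertile pool 1, high-fertile pool 2 or low-fertile pool 1 (adjusted p = 0.0962, 0.136 and 0.083), at values between 0.56 and 0.73, or with the percentile over detected probes (adjusted p = 0.0508).

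The other germ line genes gave no call. FOXJ1, the main switch for motile cilia, had a log2 fold change of 0.20 (adjusted p = 0.370, limma), with 0.56 and 0.34 in the high-fertile and 0.71 and 0.60 in the low-fertile pools. FOXO1 was at -0.27 (adjusted p = 0.449, limma) and FOXO3, which holds ovarian follicles at rest, at 0.00 (adjusted p = 0.997, limma). FOXO4, FOXJ2, SOX5 and SOX6 had no tested probe. Of the 4 SOX5 probes, for an HMG-box factor with a testis isoform, 1 was well above background on 1 array, and SOX6 and FOXO4 had none.

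PAX5, the factor that commits cells to the B lineage and a gene also listed for the testis, had the highest log2 fold change of all members without passing. It had 0.89 and 1.60 in the high-fertile and 1.33 and 5.69 in the low-fertile pools. Only low-fertile pool 2 stood out, and the 6 spots nearest to the PAX5 spot on that array were also off by over 2 log2 units. In limma the log2 fold change was 2.27 with a standard error of 1.34 (adjusted p = 0.253), 0.09 without low-fertile pool 2 and 4.45 without low-fertile pool 1 (adjusted p = 0.00438, limma). The part of the neighbouring spots in this value was not tested.

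Among the FOX genes, FOXN3 gave calls at 2 of its 3 probes. FOXN3 is a forkhead repressor linked to cell cycle checkpoints. Its brightest probe, on chr10:103880030-103880089, minus strand, is shown because the other probes of FOXN3 gave other values.
FOXN3: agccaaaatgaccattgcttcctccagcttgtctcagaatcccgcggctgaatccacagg
This probe had 2.15 and 1.94 in the high-fertile and 1.18 and 1.53 in the low-fertile pools, well above background on all 4 arrays. FOXN3 fell by 0.69 there (standard error 0.185, adjusted p = 0.0459, limma), and it passed when low-fertile pool 2 was left out but not without any other pool (adjusted p between 0.103 and 0.178, limma), nor with that pool out of fit and filter (adjusted p = 0.123) or with a replicate block (adjusted p = 0.0595).

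The other called FOXN3 probe lies 3′ of the first on the same strand. It had -0.13 and 0.06 in the high-fertile and -3.52 and -2.40 in the low-fertile pools, neither of which was well above background. In processed signal the mean of the high-fertile pools lay 5.02-fold above a floor. This floor was the lowest signal well above background, or the probe's own if higher, on each low-fertile array. It gives no firm lower bound, since in low-fertile pool 2 a FOXE1 probe at 0.10 was not well above background either. With normexp the fitted log2 fold change was -0.51. The fit across all probes gave this probe an adjusted p of 0.00527 (limma), against signals at background level. The third FOXN3 probe had -0.34 and -0.37 in the high-fertile and 0.00 and -0.28 in the low-fertile pools (log2 fold change 0.21, adjusted p = 0.368, limma). The probes of FOXN3 thus disagreed in size and sign.

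FOXK2 and FOXE1 were lower as well. FOXK2, a widely expressed repressor, had 0.41 and 0.18 in the high-fertile and -0.36 and -0.60 in the low-fertile pools (log2 fold change -0.77, standard error 0.170, adjusted p = 0.0258, limma). A probe of FOXE1, a thyroid factor, had 0.25 and 0.08 against -0.52 and -0.64 (log2 fold change -0.74, standard error 0.152, adjusted p = 0.0203, limma). The brightest FOXE1 probe gave 0.29 (adjusted p = 0.467, limma), so the 2 probes differed in sign. In both called probes low-fertile pool 2 was not well above background, and neither passed with any pool but low-fertile pool 1 left out (adjusted p between 0.0655 and 0.119, limma). With the GC correction FOXK2 was at -0.26 (adjusted p = 0.347, limma), and with the percentile over detected probes at -0.74 (adjusted p = 0.0555, limma).

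Of the FOX genes that were higher, FOXL2 and FOXA1 act in the reproductive tract. FOXL2 keeps the granulosa cells of the ovary in their fate and stands in the list of testis somatic genes as an opposing factor. Its probe on chr1:132094979-132095038, minus strand, is shown with a FOXJ1 probe on chr19:57261970-57262029, plus strand, with which it shares the 17 bases in capitals. Only 7 of 13773 pairs of member probes of different genes share 14 or more bases.
FOXL2: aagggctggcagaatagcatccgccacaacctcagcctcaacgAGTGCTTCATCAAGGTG
FOXJ1: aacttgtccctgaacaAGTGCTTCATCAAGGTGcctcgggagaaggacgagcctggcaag
The FOXL2 signal was 0.37 and 0.37 in the high-fertile and 1.05 and 1.16 in the low-fertile pools, whereas this FOXJ1 probe was well above background on no array. FOXL2 rose by 0.74 (standard error 0.142, adjusted p = 0.0172, limma). Without high-fertile pool 1, high-fertile pool 2 or low-fertile pool 2 it did not pass (adjusted p = 0.0796, 0.0843 and 0.0571, limma).

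FOXA1, a pioneer factor of liver and prostate epithelium, had -0.06 and 0.34 in the high-fertile and 0.82 and 1.04 in the low-fertile pools. Its probe, on chr21:48680088-48680147, minus strand, is shown because its call was lost whichever pool was left out.
FOXA1: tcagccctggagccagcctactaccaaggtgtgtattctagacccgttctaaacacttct
FOXA1 rose by 0.79 (standard error 0.194, adjusted p = 0.0354, limma), but with a pool left out it no longer passed, with adjusted p of 0.143 and 0.0519 without high-fertile pools 1 and 2 and 0.0526 and 0.114 without low-fertile pools 1 and 2 (limma). The files list 4 probes of FOXA1 and FOXA2 under a transcript of another member too, so their signals may be shared.

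FOXL1, a factor of the gut mesenchyme, passed the filter through the low-fertile pair, with -1.03 and -0.60 in the high-fertile pools, pool 1 not well above background, and 0.15 and 0.46 in the low-fertile pools. It rose by 1.12 (standard error 0.210, adjusted p = 0.0159, limma) and did not pass without high-fertile pool 1 or low-fertile pool 2 (adjusted p = 0.0688 and 0.056, limma). The brightest FOX genes gave no call. FOXH1, a SMAD partner in nodal signalling, had 4.12 and 4.06 against 3.75 and 3.81 (log2 fold change -0.31, adjusted p = 0.160, limma), and FOXA3 and FOXP4 had -0.11 and -0.18. Scaled on the spike-in probes, which lowered all probes, all 3 passed, with -0.73 for FOXH1, -0.54 for FOXA3 and -0.61 for FOXP4 (adjusted p = 0.0158, 0.0380 and 0.0269, limma).

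The SOX genes other than SOX30 that passed were all higher. SOX1 and SOX2 keep neural progenitors undifferentiated, and SOX13 belongs to the SOX5 group. The SOX1 probe, on chr12:84184086-84184145, plus strand, is shown as the SOX probe with the largest increase.
SOX1: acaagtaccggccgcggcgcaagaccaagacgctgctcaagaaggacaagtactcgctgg
SOX1 had -0.74 and -0.91 in the high-fertile and 0.23 and 0.07 in the low-fertile pools, with all 4 well above background. It rose by 0.98 (standard error 0.154, adjusted p = 0.00967, limma), and without high-fertile pool 2 it did not pass (adjusted p = 0.0575, limma). SOX13 had 0.76 and 0.60 against 1.57 and 1.59 and rose by 0.90 (standard error 0.148, adjusted p = 0.0106, limma), and it did not pass without high-fertile pool 2 (adjusted p = 0.0637, limma). In both genes the groups stood apart by more than the spread within either.

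Most SOX probes did not pass. The 3 SOX2 probes, all on all arrays, had log2 fold changes of -0.05, -0.22 and -0.25, and SOX11 and SOX4, active in many progenitor cells, had 0.37 and -0.35 (adjusted p between 0.136 and 0.888, limma). SOX2 turned to 0.09 with the GC correction described below and FOXO3 to -0.42 with the spike-in scaling, so values this small have no settled sign.

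PAX6 and PAX7 differed in opposite directions. PAX6 is the eye and pancreas factor, and PAX7 marks the stem cells of skeletal muscle. Their probes, on chr15:62373534-62373593 and chr2:138548078-138548137, both minus strand, are shown because they are the called PAX probes.
PAX6: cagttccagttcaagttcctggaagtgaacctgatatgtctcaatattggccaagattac
PAX7: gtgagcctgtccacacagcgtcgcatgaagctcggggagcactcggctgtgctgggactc
PAX6 had 0.61 and 0.91 in the high-fertile and -0.92 and -0.46 in the low-fertile pools, the last not well above background. PAX6 was thus measured in 1 of the 2 low-fertile pools and admitted through the high-fertile pair. It fell by 1.44 (standard error 0.214, adjusted p = 0.00803, limma), and by 0.47 with normexp. PAX7 had -0.12 and 0.15 against 1.06 and 1.19, all 4 well above background, and rose by 1.11 (standard error 0.166, adjusted p = 0.00832, limma), or by 0.49 with normexp.

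With each pool left out the log2 fold change of PAX6 lay between -1.67 and -1.22 and that of PAX7 between 0.97 and 1.24. With low-fertile pool 2 out of both fit and filter, neither passed (adjusted p = 0.0612 and 0.106, limma). The other 2 PAX6 probes were well above background on no array, so PAX6 rests on a single probe, and PAX7 had 1 probe. PAX1, a factor of the vertebral column, was at 0.15 (adjusted p = 0.461, limma).

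The HOX calls were spread over 3 of the 4 clusters. HOXA2, which patterns the hindbrain and the second pharyngeal arch, had 1.82 and 1.68 in the high-fertile and 0.96 and 1.06 in the low-fertile pools. HOXA7, a trunk gene of the same cluster, had 1.43 and 1.45 against 2.26 and 2.19. Their probes, on chr4:71673837-71673896 and chr4:71618720-71618779, both plus strand, are shown because they were called in opposite directions within 1 cluster, although the call of HOXA2 was lost with the GC correction described below (-0.23, adjusted p = 0.323, limma).
HOXA2: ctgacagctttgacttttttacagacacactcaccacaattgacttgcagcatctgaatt
HOXA7: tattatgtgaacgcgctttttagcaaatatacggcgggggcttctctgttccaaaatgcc
HOXA2 fell by 0.74 (standard error 0.148, adjusted p = 0.0192, limma) and HOXA7 rose by 0.78 (standard error 0.141, adjusted p = 0.0140, limma), and both were well above background on all 4 arrays. HOXA2 passed with low-fertile pool 2 left out but not without any other pool (adjusted p = 0.0989, 0.0684 and 0.0542, limma), and HOXA7 did not pass without high-fertile pool 1 or 2 (adjusted p = 0.071 and 0.0708, limma), where its value stayed at 0.77 and 0.79.

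Further along the clusters, HOXC13 was lower and HOXD9 higher. HOXC13, the hair and nail gene, had 0.75 and 0.62 in the high-fertile and -0.18 and -0.11 in the low-fertile pools, pool 2 not well above background. It fell by 0.83 (standard error 0.145, adjusted p = 0.0130, limma) and did not pass without high-fertile pool 1 or 2 (adjusted p = 0.072 and 0.0536, limma), nor with the GC correction, where it was at -0.16 (adjusted p = 0.509, limma). HOXD9, a gene of the limb and hind body, had -0.71 and -1.52 against -0.05 and 0.03 and rose 2.15-fold (log2 standard error 0.282, adjusted p = 0.0390, limma). Leaving out high-fertile pool 1 gave 1.51 and leaving out high-fertile pool 2 gave 0.70, where it did not pass (adjusted p = 0.0927, limma), nor did it without low-fertile pool 1 or 2 (adjusted p = 0.0856 and 0.115, limma). Its call was also lost with the percentile over detected probes and with quantile normalization (adjusted p = 0.0574 and 0.0594, limma), at 1.14 and 1.16, and normexp gave 0.28.

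Of the 3 HOX genes named for their high signal, HOXA7 passed and HOXB4 and HOXB2 did not. HOXB4, known for its part in blood stem cells, had 1.72 and 1.74 against 2.14 and 2.46 (log2 fold change 0.57, adjusted p = 0.0590, limma), and HOXB2 had 1.93 and 2.11 against 1.55 and 1.67 (log2 fold change -0.41, adjusted p = 0.104, limma). HOXB4 lay near the threshold and passed in 7 of 20 alternative fits, between 0.25 and 0.73, and HOXB2 in 3 of 19, between -0.83 and -0.24. A pair of HOXB4 probes, which overlap on chr19:39119039-39119098 and chr19:39119072-39119131, plus strand, and a HOXD4 probe on chr2:21423818-21423877, minus strand, share the 20 bases in capitals. They are shown because this is the longest run that member probes of different genes have in common, one other pair of HOX probes sharing as many bases.
HOXB4: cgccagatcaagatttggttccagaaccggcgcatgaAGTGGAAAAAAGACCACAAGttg
HOXB4, second probe: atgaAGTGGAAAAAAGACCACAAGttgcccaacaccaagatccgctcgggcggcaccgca
HOXD4: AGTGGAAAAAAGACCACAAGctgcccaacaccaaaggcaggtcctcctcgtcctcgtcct
The second HOXB4 probe had a log2 fold change of 0.16 (adjusted p = 0.447, limma) and the HOXD4 probe of 0.26 (adjusted p = 0.285, limma). All 3 were well above background on all 4 arrays, and the part of a shared sequence in this was not tested.

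TBX1 was the only TBX probe that passed. TBX1 shapes the pharyngeal arches and the outflow tract of the heart. Its brightest probe, on chr17:76291765-76291824, minus strand, is shown for its composition, with 4 copies of the unit CGCACC in capitals. It was the only one of the 51282 probes with so many copies on its own strand, and 0.41% of probes had any.
TBX1: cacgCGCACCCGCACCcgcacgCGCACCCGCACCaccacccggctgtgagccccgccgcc
The signal was 5.16 and 5.10 in the high-fertile and 4.21 and 4.49 in the low-fertile pools, and the GC content of the probe was 81.7%. TBX1 fell by 0.78 (standard error 0.164, adjusted p = 0.0217, limma), and without high-fertile pools 1 and 2 or low-fertile pool 1 it did not pass (adjusted p = 0.0979, 0.0863 and 0.0584, limma). The other TBX1 probe was untested, with -0.36 and -0.80 against -0.25 and -0.16, so the decrease was seen at 1 of 2 probes.

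The other TBX genes and all GATA genes gave no call in the reported fit. Of the 6 tested GATA probes 1 had an unadjusted p under 0.05 (limma), where 8741 of all 21033 tested probes had one. TBX21, the factor of type 1 helper T cells, had 1.66 and 1.45 against 1.62 and 1.69 (log2 fold change 0.10, adjusted p = 0.659, limma). TBX18, of the urinary tract and heart, had -0.51 (adjusted p = 0.0958, limma), or -0.94 with spike-in scaling, where it passed (adjusted p = 0.0139), as it did in a fit of probes above background on all arrays (adjusted p = 0.0488). Its other probe, which lay beside spots that were off, ranged from -0.16 to 1.55 in the low-fertile pools. The brightest probe of GATA3, a factor of T cells and of the ducts of the male tract, had 1.92 and 1.84 against 1.77 and 1.70 (log2 fold change -0.15, adjusted p = 0.474, limma), and passed with spike-in scaling (-0.57, adjusted p = 0.0401) and normexp (-0.22, adjusted p = 0.0374). GATA6 and GATA4, factors of Sertoli and Leydig cells, had -0.06 and 0.38 (adjusted p = 0.826 and 0.202, limma), and GATA2, of blood stem cells, had -0.18 (adjusted p = 0.432, limma). In 4 of the 6 tested GATA probes the pools of the groups did not overlap, by amounts too small to pass. The low-fertile pools lay below in 2 and above in 2, where they did so in 35.5% and 33.6% of all tested probes.

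**Figure D4:**
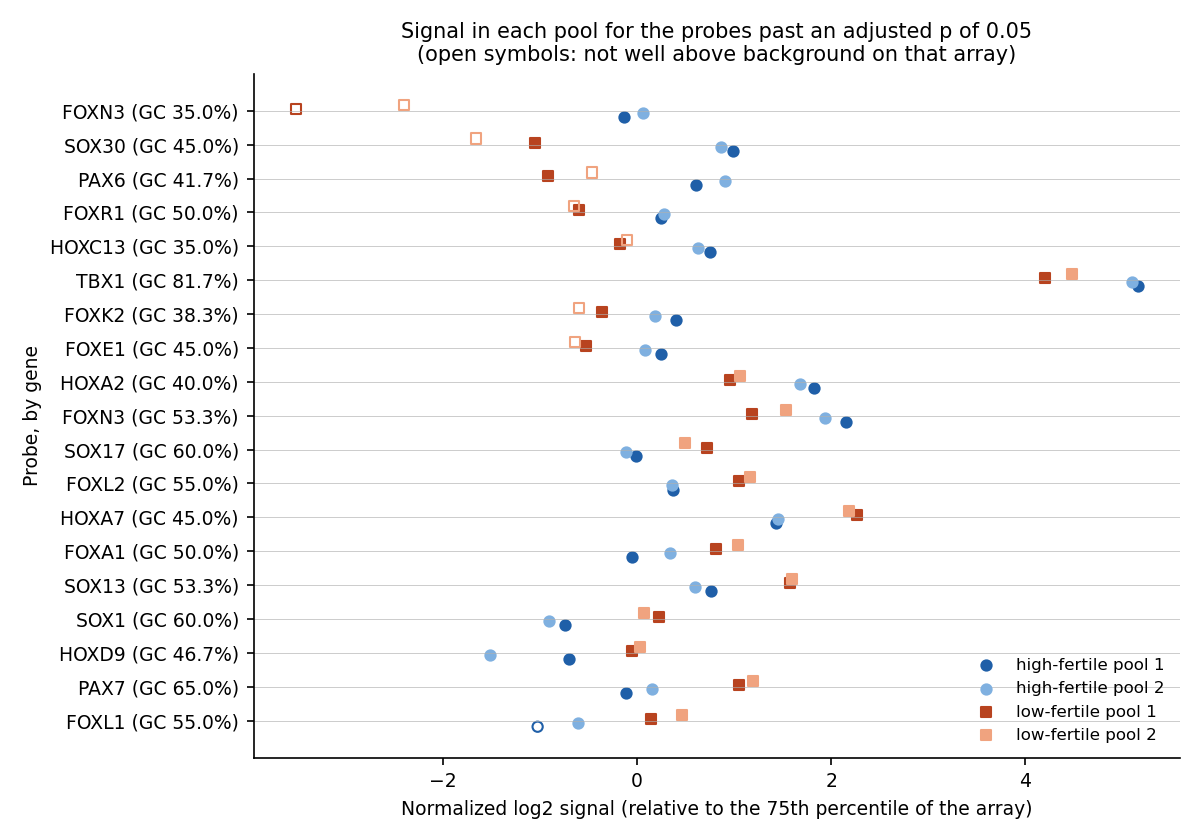
Normalized log2 signal of each pool for the 19 member probes past an adjusted p of 0.05, with the most decreased at the top and the GC content of the probe in the row names. Pools are compared within a row, not between rows; in each row the blue circles (high-fertile) and orange squares (low-fertile) do not overlap, and the lower pools of 7 of the 10 decreased probes include open symbols, not well above background.

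The other tested members gave no call. Among them were HOXC4 at -0.72, with 2.16 and 1.49 in the high-fertile and 0.95 and 1.25 in the low-fertile pools (adjusted p = 0.0946, limma), and HOXB3 at -0.55 (adjusted p = 0.158, limma), both genes of the neck region. TBX19, a pituitary factor, was at 0.51 (adjusted p = 0.0839, limma), SOX18, of blood and lymph vessels, at 0.50 (adjusted p = 0.0850, limma), FOXC2, also of lymph vessels, at 0.45 and HOXB1, of the hindbrain, at 0.44. FOXM1, which drives the entry into mitosis, was at 0.01 and FOXN1, the thymus factor, at 0.00, with all 4 arrays well above background for both. These 8 genes did not pass, and the 2 HOXB7 probes, at 0.21 and -0.27, had opposite signs. Outside the HOX genes, FOXD3, FOXE3, FOXN2, FOXN4, FOXO4, FOXP2, SOX6 and TBX3 were well above background on no array.

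In the 4 lists of tissue roles, 5 of 21 tested genes (23.8%) passed, near the 26.8% of all tested probes, 2 lower and 3 higher. Of 6 testis somatic genes on the array 3 were tested, with FOXL2 higher and GATA4 and GATA6 not past the threshold, while GATA1, SOX8 and SOX10 had no tested probe. Of 7 male tract epithelium genes 6 were tested, with FOXA1 higher and FOXA2, FOXI1, GATA3, PAX8 and SOX2 not past the threshold. FOXI1, which marks ionocytes, had 0.13 and -0.37 against 0.49 and 0.54 (log2 fold change 0.64, adjusted p = 0.0732, limma), PAX8 had 0.31 (adjusted p = 0.178, limma) and FOXA2 had 0.34 (adjusted p = 0.244, limma). PAX2 had no tested probe. Of 8 blood genes 7 were tested and none passed in limma. An unadjusted p under 0.05 was held by 1 of them, where 8741 of all 21033 tested probes had one. FOXP3 of regulatory T cells was nearest at -0.44 (adjusted p = 0.0870, limma), and FOXP1 was at 0.18 (adjusted p = 0.473, limma).

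Some probes were brighter in the low-fertile pools but could not be tested. A GATA6 probe had -1.09 and -1.30 in the high-fertile and -0.11 and 0.10 in the low-fertile pools, and a SOX10 probe, for a neural crest factor, had -2.97 and -2.20 against 0.04 and -0.59. Both were well above background in low-fertile pool 1 alone. These were chosen after their values were seen, and no fold is given for them.

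Where a gene had several probes, they often disagreed. Of the 46 genes with several probes, 9 had all of them tested, 26 had some and 11 had none. Of the 13 genes with at least 2 tested probes, 7 had log2 fold changes of 1 sign, and 0 had calls in opposite directions. Of the 18 genes with a call, 15 had 1 tested probe. The exceptions were FOXN3, FOXE1 and HOXC13, whose second tested probe had -0.80 (adjusted p = 0.0989, limma), the same sign as the first.

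The base composition of the probes moved with the comparison. Spearman's rho of GC content with log2 fold change was 0.397 over the 79 tested member probes and 0.483 over all 21033 tested probes. It is a description across probes that share arrays. The 6 member probes with a GC content of 40% or less lay at a median log2 fold change of -0.76, and 4 were lower and 0 higher. Among the 39 above 50% GC the median was 0.20, and 2 were lower and 6 higher. Over all tested probes the medians of these classes were -0.68 and 0.23, with 1715 lower and 136 higher of 3611 and 231 lower and 1290 higher of 8068. With the median signal of each GC class removed from each array, 7 member probes were lower and 6 higher. SOX30, PAX6, FOXR1, TBX1, FOXE1 and both FOXN3 probes were still lower, and SOX1, SOX13, PAX7, HOXA7, FOXA1 and FOXL1 still higher. HOXA2 at -0.23, HOXC13 at -0.16 and FOXK2 at -0.26 no longer passed (adjusted p = 0.323, 0.509 and 0.347, limma), nor did SOX17 at 0.47 and FOXL2 at 0.53 (adjusted p = 0.0875 and 0.0554, limma). HOXD9 did not pass either (adjusted p = 0.0523, limma), with its log2 fold change hardly moved, at 1.11.

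**Figure D5:**
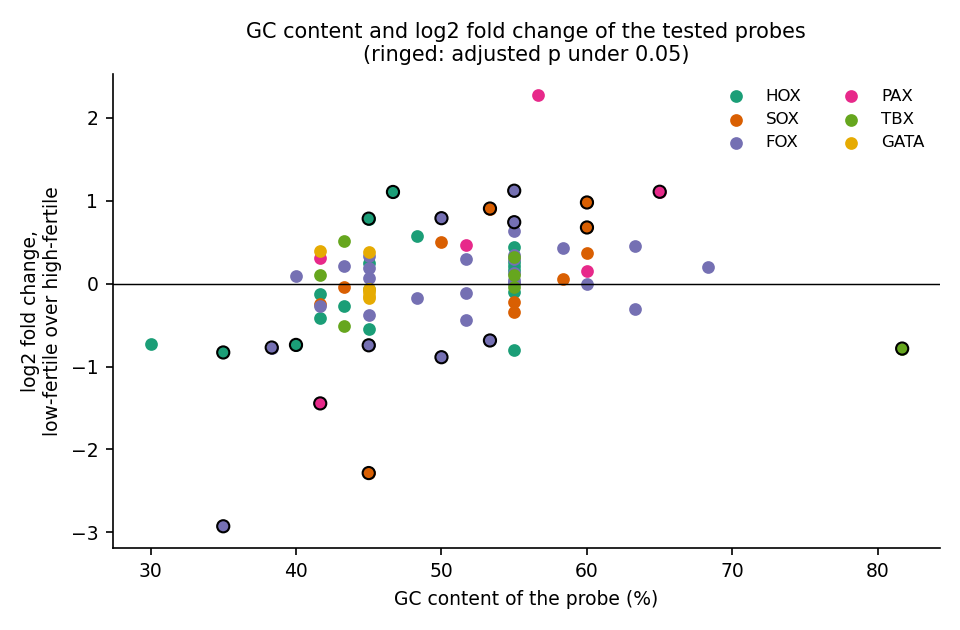
GC content of the probe (percent) against log2 fold change, low-fertile over high-fertile, of the 79 tested member probes, coloured by family and ringed where the adjusted p was under 0.05. The probes at 40% GC or less lie mostly below 0, the TBX1 probe at 81.7% stands alone on the right, and the PAX5 point at 2.27 is the one that rests on low-fertile pool 2.

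Partners of these factors were measured too. Of 6 tested HOX cofactors (the PBX, MEIS and PKNOX genes) 0 passed in limma. An unadjusted p under 0.05 was held by 2 of them, where 8741 of all 21033 tested probes had one. PBX2 was nearest, with 3.86 and 4.15 in the high-fertile and 4.58 and 4.56 in the low-fertile pools. Among 5 tested GATA cofactors, LMO2, a bridge protein of blood stem cells, was lower with 1.35 and 1.55 against 0.08 and -0.32 (log2 fold change -1.57), the last not well above background. Of 7 SOX and FOX partners POU2F1 and POU3F2 were lower (-0.64 and -1.05). Like LMO2, POU3F2 was above background on 1 of the 2 low-fertile arrays and admitted through the high-fertile pair. Of 4 Groucho corepressors TLE1 and TLE3 were lower. TLE3 was at -0.80, whereas TLE1 was well above background on neither low-fertile array and is given no fold. Over these 4 lists 5 of 22 tested genes (22.7%) passed, all lower, where 17.6% of all tested probes were. Of the 5, LMO2, POU3F2 and TLE1 were admitted through the high-fertile pair, where 30.1% of all such probes were lower.

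Chromatin regulators that keep developmental genes off or on were measured as well. Of 14 tested Polycomb genes, PCGF2 was lower (-0.58) and EZH1, EZH2 and CBX7 were higher (1.06, 1.63 and 0.97), and 10 did not pass. EZH2, the methyltransferase of histone H3 lysine 27, had -0.60 and -0.56 in the high-fertile and 1.25 and 0.85 in the low-fertile pools, so that the groups did not overlap. Of 6 tested trithorax and demethylase genes WDR5 and ASH2L, shared parts of the opposing methyltransferases, were higher (0.91 and 0.74). Over both lists 6 of 20 tested genes (30%) passed, 1 lower and 5 higher, where 17.6% of all tested probes were lower and 9.22% higher.

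Markers of other cells were present on the arrays. Over the lists of sperm and other cells, 1 of 42 tested genes was lower and 5 were higher, where 17.6% and 9.22% of all tested probes were. The leukocyte marker PTPRC had log2 signals of 7.57 and 7.58 in the high-fertile and 8.28 and 8.45 in the low-fertile pools, and LYZ had 8.53 and 8.39 against 8.78 and 8.90. Of 11 tested leukocyte markers, PTPRC was higher, CD3D lower and 9 did not pass, and the summed linear signal of the list, relative to the 75th percentile, was 729 to 748 in the high-fertile pools and 860 to 948 in the low-fertile pools. Most of this sum is LYZ, PTPRC and CD3D, and CD3D was lower, with 7.09 and 7.19 against 5.94 and 6.24. Of the 14 leukocyte markers CD3E and CD8A were above background on no array. Of 11 tested Sertoli and Leydig cell markers DHH and STAR were higher and 9 did not pass, with sums of 23.3 to 26.9 and 26.8 to 29.8. None of 7 tested epithelial markers and none of 2 tested earlier germ cell markers passed in limma. An unadjusted p under 0.05 was held by 2 and 1 of them, where 8741 of all 21033 tested probes had one. The sums of these lists were 30.1 to 30.9 against 32.4 to 36.1 and 11.7 to 13.6 against 11.1 to 11.8. Of 3 tested red cell markers HBB was higher, admitted through the low-fertile pair since high-fertile pool 1 was not above background, with sums of 8.54 to 12.8 against 10.9 to 12.7, and of 8 tested sperm markers PRM1 was higher. The part of other cells in the values of the blood, testis somatic and epithelial factors was not tested.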

How the data were processed

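Sperm RNA of 4 pools was labelled with 1 dye and hybridized to an Agilent bovine array. For every array the authors deposited the raw output of Feature Extraction 11.5.1.1. Its processed signals are intensities on a linear scale after background subtraction. They also deposited a value table, log2 and shifted to the 75th percentile of the array. The deposited output further holds marks of other kinds, such as "well above background". Here the log2 processed signal was averaged over the spots of a probe, outlier spots left out, and the 75th percentile over the 51282 sample probes was subtracted. A probe took a mark held by 0.5 or more of its spots. The 21033 probes marked well above background on the 2 arrays of either group entered limma 3.58.1 (R 4.3.3) with Benjamini-Hochberg adjustment, and the script was tested on simulated data. In 5 simulations of 21033 probes, few of them changed, 26 of 500 log2 changes of 1 (5.2%) were recovered. Of changes of 2, 426 of 500 (85.2%) were recovered. A probe without a call may thus still differ. Coordinates are those of Btau_3.1 in the files, and whether a probe lies in a coding or untranslated part was not analysed here. RefSeq names matched 120 of the 167 member probes, 119 with the same symbol. A HOXC11 probe matched HOXC10.

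The members and lists were chosen with earlier results of these data known. Named were, from the brightest probe of a gene, the 3 brightest genes of each family above background on all arrays, up to 10 lower and 10 higher genes past the threshold, and the genes of 4 role lists (germ line and sperm, testis somatic cells, male tract epithelium, blood cells). Other probes and genes were chosen after their values were seen. The pool numbers of the labels do not pair the samples (r = 0.0055 between the differences of the pairs). Alternatives covered scaling, background, filter, outlier spots, bright patches, each pool left out, the methods' t-test and, added after seeing the data, a correction for probe GC content in 8 bins and low-fertile pool 2 left out of fit and filter.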

Additional observations from a re-analysis of the deposited data

How the results depend on the processing

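The calls depend on the filter, the scaling and each pool. Beside 10 lower and 9 higher member probes, the counts were 0 and 0 without a filter (limma, where 32 of 167 members and 9278 of 51282 probes had an unadjusted p under 0.05), 0 and 0 with the weaker mark (33 of 148 and 9796 of 40145) and 0 and 0 by the methods' t-test after adjustment (17 of 79 and 6084 of 21024). They were 24 and 2 with spike-in scaling, 5 and 14 over probes above background on all 4 arrays, and 2 and 1 with low-fertile pool 2 left out of fit and filter. With each pool left out, lower probes numbered 3 to 9 and higher ones 2 to 8. Called probes above background on all 4 arrays, 11 in the reported fit, numbered 18 with normexp, 19 in a fit of such probes alone, 7 with the GC correction, 0 without low-fertile pool 2 in fit and filter, 0 without a filter, with the weaker mark and by the t-test, and 1 to 9 with each pool left out. With the weaker mark 148 probes and with no filter 167 were tested, against 79. Of the 19 called probes, 4 passed with each pool left out, in fits with 1 pool in a group, and FOXA1 with none. Of these 4, PAX7 alone was above background on all arrays. The share of lower calls among members was 52.6%, against 26.3% over probes above background on all 4 arrays and 92.3% with spike-in scaling.

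Family medians moved by more than their spread over pool pairs as follows. With spike-in scaling they were -0.52 for HOX, -0.38 for SOX, -0.36 for FOX, -0.035 for PAX, -0.40 for TBX and -0.51 for GATA. Over probes above background on all 4 arrays they were 0.21 for HOX, 0.21 for SOX and 0.13 for FOX. Without a filter they were 0.16 for HOX, 0.24 for SOX, 0.17 for FOX, 0.17 for TBX and 0.40 for GATA, and with the weaker mark 0.045 for HOX, 0.14 for FOX and 0.39 for GATA. With low-fertile pool 2 out of fit and filter they were 0.22 for HOX, 0.34 for SOX, 0.26 for FOX, 0.18 for TBX and 0.38 for GATA. Normexp gave -0.085 for SOX, 0.14 for PAX and 0.015 for GATA, the GC correction -0.081 for FOX and 0.052 for GATA, and the percentile over detected probes -0.047 for GATA. With each pool left out HOX lay between -0.23 and 0.068, SOX between -0.047 and 0.20, FOX between 0.039 and 0.13, PAX between 0.24 and 0.50, TBX between -0.073 and 0.11 and GATA between -0.081 and 0.021.

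Among single genes 24 values changed sign, none of a called gene. With spike-in scaling they were FOXJ1 at -0.22, TBX21 at -0.33, FOXO3 at -0.42, PAX8 at -0.11, FOXA2 at -0.086, GATA4 at -0.050, FOXP1 at -0.24, PAX1 at -0.27 and SOX11 at -0.052. With the GC correction they were FOXO3 at -0.21, PAX1 at -0.055, GATA6 at 0.070 and SOX2 at 0.087. FOXO3 was at -0.0099 in the deposited table, FOXO1 at 0.059 without low-fertile pool 2 in fit and filter, and GATA3 at 0.12 and FOXA3 at 0.0063 by the median over tested probes. With each pool left out TBX21 ran from -0.0073 to 0.20, FOXO3 from -0.15 to 0.15, GATA6 from -0.28 to 0.16, SOX2 from -0.29 to 0.20 and FOXO1 from -0.60 to 0.059. The causes were not tested. With a replicate block, 9 member probes were lower and 9 higher, since FOXN3's brightest probe did not pass (adjusted p = 0.060, limma), and no other call changed. The array of low-fertile pool 2 had the fewest probes well above background (25.4%) and the highest SD of the negative-control spots (126). The reason for its low detection was not tested.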
